A study of Mus musculus with 9 samples.

Results

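The genes described here are 69 protein-coding transcripts that were abundant in bone marrow neutrophils kept alone and scarce in neutrophils kept with PyMT-N cells, with more left when the neutrophils were kept with PyMT-M cells. They were chosen from 12012 tested genes (54532 genes in the count table) by 3 limits on group means of normalised CPM, the count of a gene relative to the library total (CPM) after the trimmed mean of M values (TMM) had set the library sizes. The mean alone had to be at least 20, the mean alone had to be at least 4 times the mean with PyMT-N cells, and the mean with PyMT-M cells had to be at least 4 times the mean with PyMT-N cells. These limits passed 78 protein-coding genes, and 69 remained after the genes that the rule leaves out by name. Because the rule used the means of all 3 groups, the levels and differences of these genes are given as a description and no p-value is read as evidence about them.

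All 9 libraries were bulk RNA sequencing of neutrophils from wild type C57/B6 mice after 12 h at 0.5% fetal bovine serum, with 3 libraries each for neutrophils alone, with PyMT-N cells and with PyMT-M cells. The labels give the co-culture medium as DMEM, name no medium for the neutrophils alone, and do not say what N and M abbreviate or what the PyMT cells are beyond that name. The co-cultured neutrophils were recovered by fluorescence-activated sorting, and whether the neutrophils alone were also sorted is not stated, so sorting and co-culture cannot be told apart. The libraries are numbered biological replicates not tied to separate animals, so spread and p-values measure only the difference between these libraries, which may be technical. In the column names, same-numbered libraries of the 3 groups carry the same identifier. Whether they share a source is not stated, and the main tests used no pairing. In such bulk RNA, fewer cells of a type and less RNA per cell cannot be told apart.

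Neutrophils are short-lived granulocytes that are made in the bone marrow from progenitors under the control of C/EBP and PU.1 transcription factors. As they mature they load granules with antimicrobial proteins in successive waves, then acquire the adhesion molecules, chemoattractant receptors and inhibitory lectins with which they leave the marrow and enter tissue. They rely largely on glycolysis, and integrin activation through the small GTPase Rap1 lets them arrest on endothelium.

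Depth ranged from 1641049 counts (alone replicate 3) to 4524563 counts, with 11814 to 17008 genes detected, and 1 count was worth 0.191 to 0.754 normalised CPM. The summed level of the 69 genes was 7836, 7481 and 8371 normalised CPM alone, 3708, 2893 and 3268 with PyMT-M cells, and 598, 469 and 422 with PyMT-N cells. The neutrophil identity of the libraries held in every group: S100a8, an alarmin of mature neutrophils, stood at 10562 ± 2321 alone, 4071 ± 618 with PyMT-M cells and 3655 ± 551 with PyMT-N cells (SD, n = 3). The summed level of 32 mature neutrophil genes outside the members was 53219 ± 8721 alone, 21304 ± 2410 with PyMT-M cells and 30366 ± 3718 with PyMT-N cells, so it was higher with PyMT-N cells than with PyMT-M cells, the reverse of the order that chose the members.

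Transcripts of other cells moved with the groups. The summed level of 27 B cell markers outside the members was 939, 891 and 1949 normalised CPM alone, 173 ± 40.4 with PyMT-M cells and 82.0 ± 7.55 with PyMT-N cells. That sum includes Ighm, at means of 630, 93.8 and 11.9 in the same order. It also includes Cd37, a gene of leukocytes in general, at 180, 55.7 and 45.4. Of 17 tested genes on the list, members included, 2 were called lower, 1 higher and 14 not called with PyMT-N against PyMT-M cells. Over all genes 15.5% were called lower and 19.1% higher. The defining B cell markers Cd79a and Ms4a1 averaged 24.9 and 41.4 alone, 0.0717 and 0.177 with PyMT-M cells, and 0.638 and 1.41 with PyMT-N cells. Dendritic cell markers summed to 912 ± 241 alone, 210 ± 23.2 with PyMT-M cells and 242 ± 6.24 with PyMT-N cells, and eosinophil, basophil and mast cell markers to 509 ± 61.7, 25.7 ± 1.59 and 37.5 ± 5.57. Mesenchymal markers summed to 1827 ± 136 alone, 4249 ± 346 with PyMT-M cells and 2356 ± 137 with PyMT-N cells. Epithelial markers summed to 1992 ± 384 alone, 1089 ± 209 with PyMT-M cells and 5269 ± 228 with PyMT-N cells. Their list includes Lcn2, which is also on the list of specific granule genes, and what made up the sum alone was not tested. The keratin Krt8 averaged 0.149 alone, 43.5 with PyMT-M cells and 378 with PyMT-N cells, and Epcam 0, 1.92 and 190. For each of these sums the exact two-sided permutation test of 3 against 3 libraries cannot go below p = 0.1, and the smallest adjusted value over 33 tests was 0.114. The part of these other transcripts in the members' levels was not tested.

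**Figure D1:**
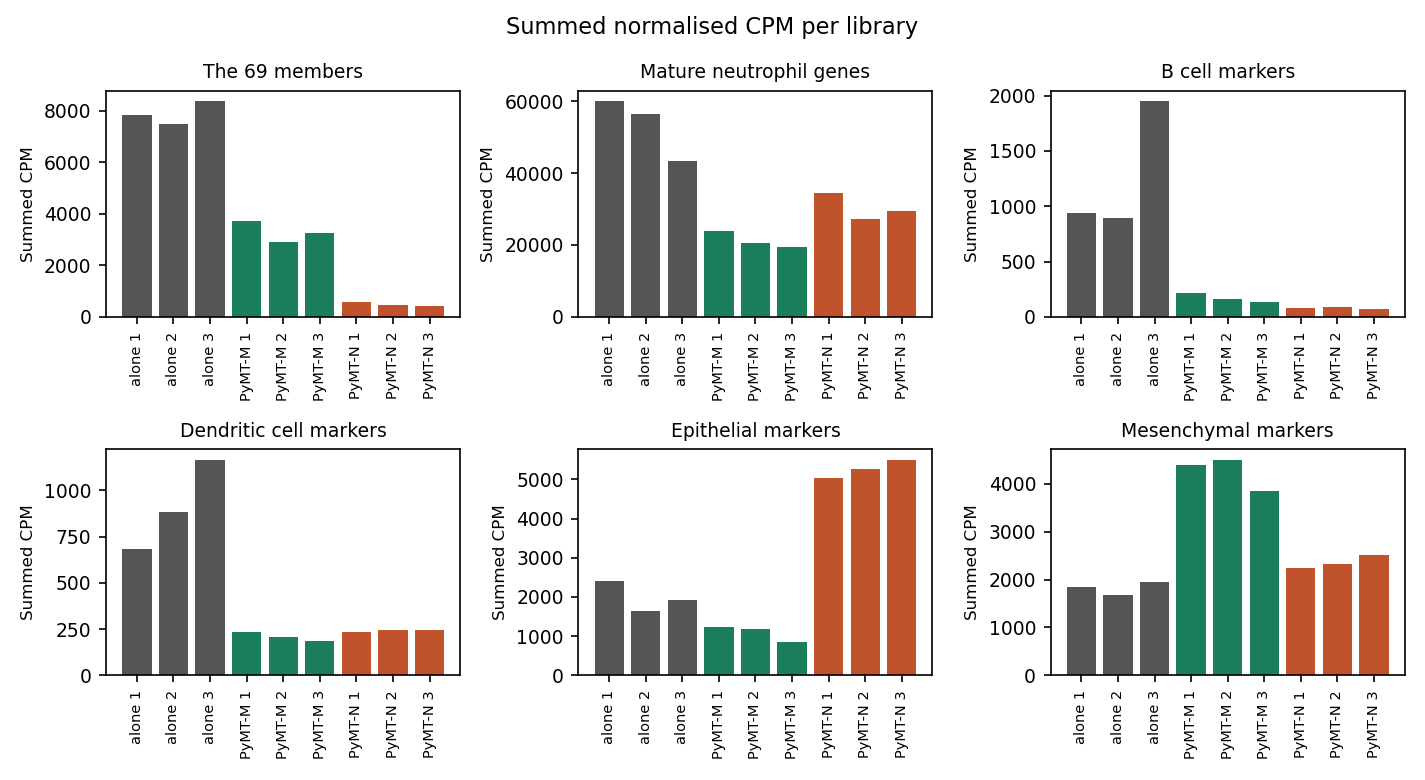
Bars give the summed normalised CPM of a gene list in each of the 9 libraries, on a linear axis from 0 that differs between panels. The 69 members fall in steps from alone to PyMT-M to PyMT-N, mature neutrophil genes are lowest with PyMT-M cells, B cell and dendritic cell markers are low in both co-cultures, and epithelial markers are highest with PyMT-N cells.

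Most of the 69 genes were also low with PyMT-M cells. With PyMT-N cells they held a median of 5.27% of their mean alone (0 to 22.6%), and with PyMT-M cells a median of 34.3% (0.462 to 143%). With PyMT-M cells 20 genes held at most 25% of their mean alone, 27 held over 25 to 50%, 17 held over 50 to 100% and 5 held more than alone. Among all protein-coding genes of mean at least 20 alone, the shares in those ranges were 5.44%, 27.9%, 37.9% and 28.8%. The working name of the set, genes lost mainly with PyMT-N cells, covers 22 genes that kept over 50% of their level with PyMT-M cells and 47 that did not. With alone replicate 3 left out of the mean alone, Slc2a3, Khk and Tlr5 fell below 50%, and Clec4a1, Tst, Lrmp and Selenop rose above it.

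**Figure D2:**
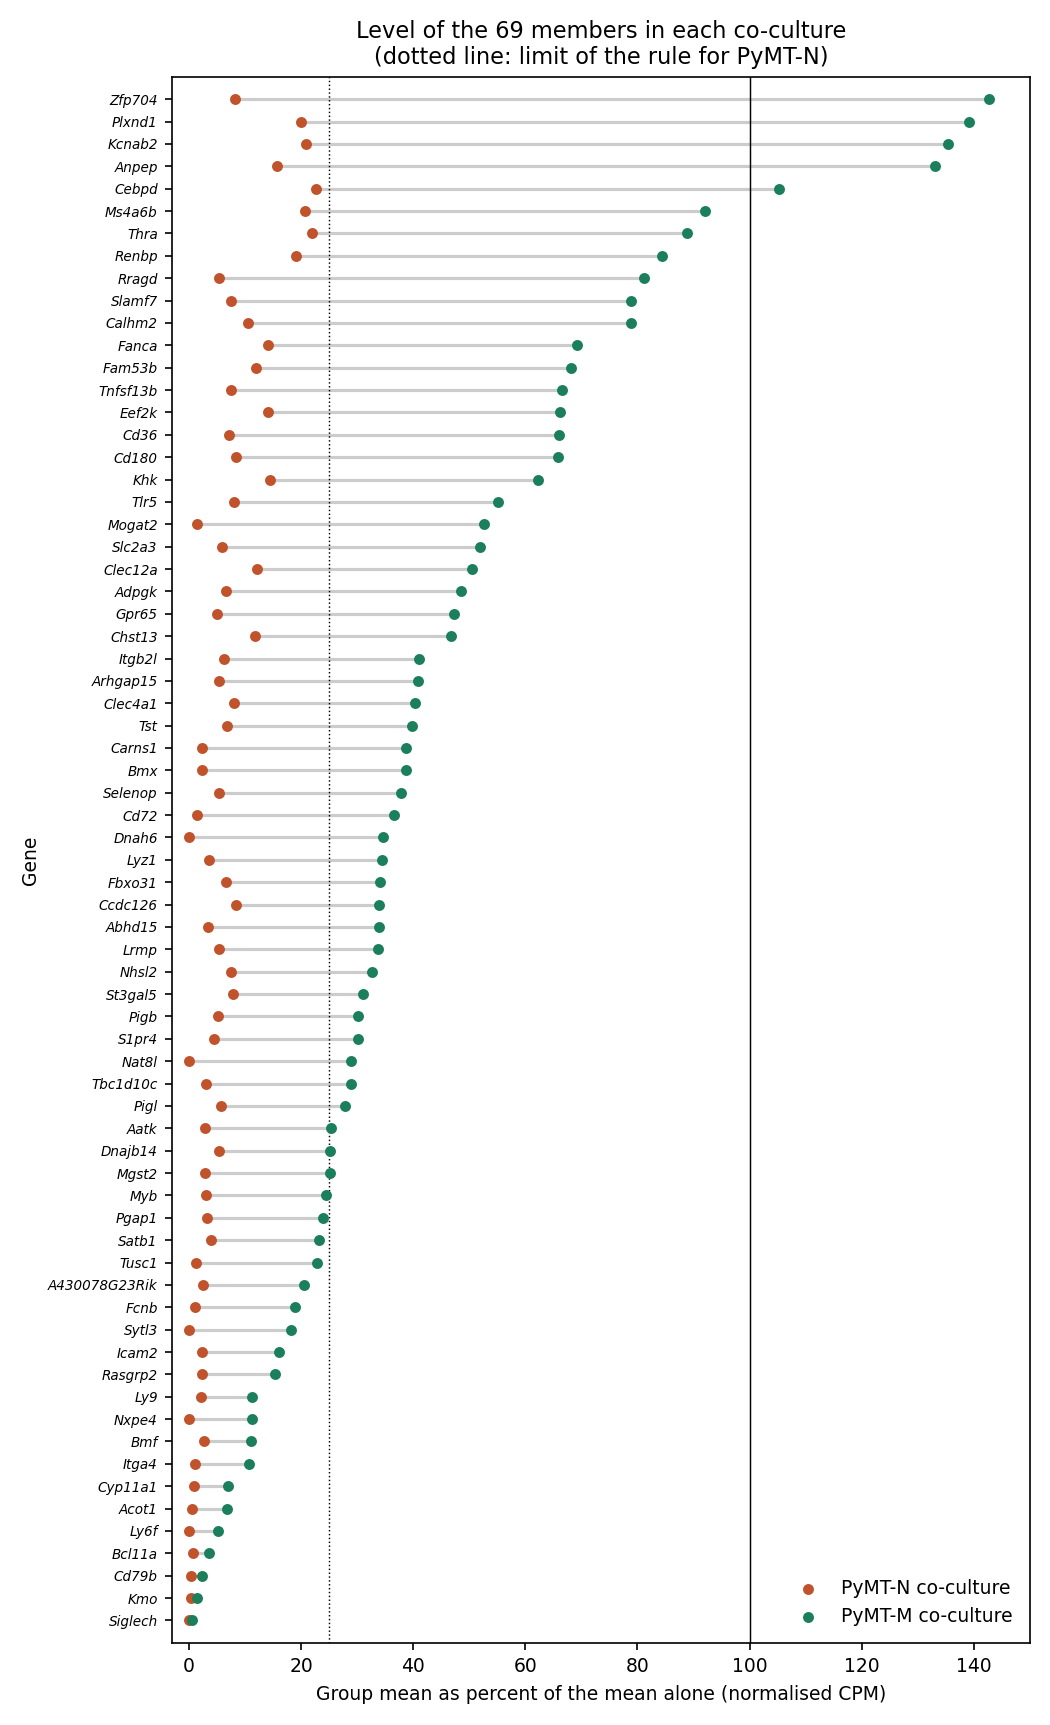
Each row is 1 of the 69 members, and points give its mean with PyMT-N cells and with PyMT-M cells as a percent of its mean alone (normalised CPM, 3 libraries per group). All PyMT-N points lie left of the dotted limit of the rule, while PyMT-M points run from 0.462% (Siglech) to 143% (Zfp704).

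In edgeR's quasi-likelihood test over all 12012 genes, with Benjamini-Hochberg adjustment and a call at adjusted p under 0.05, all 69 genes were called lower with PyMT-N cells than alone, beside 23.6% of all genes, and 61 were called lower with PyMT-N cells than with PyMT-M cells, beside 15.5%. Both contrasts chose the members, so nothing is read from these counts. The median log2 differences were -4.29 and -2.81, beside 0.12 and -0.02 over all tested genes. For PyMT-M cells against alone, a ratio on which the rule set no limit though it used both means, 48 genes were called lower (69.6%, beside 27.9% of all genes and 48.1% of genes of mean at least 20 alone), none was called higher, and 21 were not called. The median log2 difference there was -1.55 (-7.35 to 0.54), beside -0.03 over all genes and -0.62 over those of mean at least 20. The libraries of the compared groups did not overlap, with the first group lower, in 69, 62 and 44 genes for the 3 contrasts in the same order, beside 23.3%, 25.5% and 26.5% of all genes.

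How the libraries were scaled changed the calls for PyMT-M cells far more than those for PyMT-N cells. A further scaling set the libraries by the geometric mean count of 29 pan-leukocyte genes. The summed level of these genes under TMM, a different measure, was 31759 ± 922 normalised CPM alone, 10728 ± 1639 with PyMT-M cells and 14280 ± 1798 with PyMT-N cells. With the geometric mean scaling 65 members were still called lower with PyMT-N cells than alone, beside 6.03% of all genes. Under that scaling 11 members were called lower and 19 higher with PyMT-M cells than alone, beside 1.78% and 67.9% of all genes, and the members' median log2 difference was 0.07. It moved the median of all genes by 1.28 for PyMT-N cells and by 1.6 for PyMT-M cells. With library totals in place of TMM, 41 members were called lower and 4 higher with PyMT-M cells than alone, beside 15.9% and 38.1% of all genes. The members' direction with PyMT-M cells is therefore given relative to TMM scaling throughout.

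**Figure D3:**
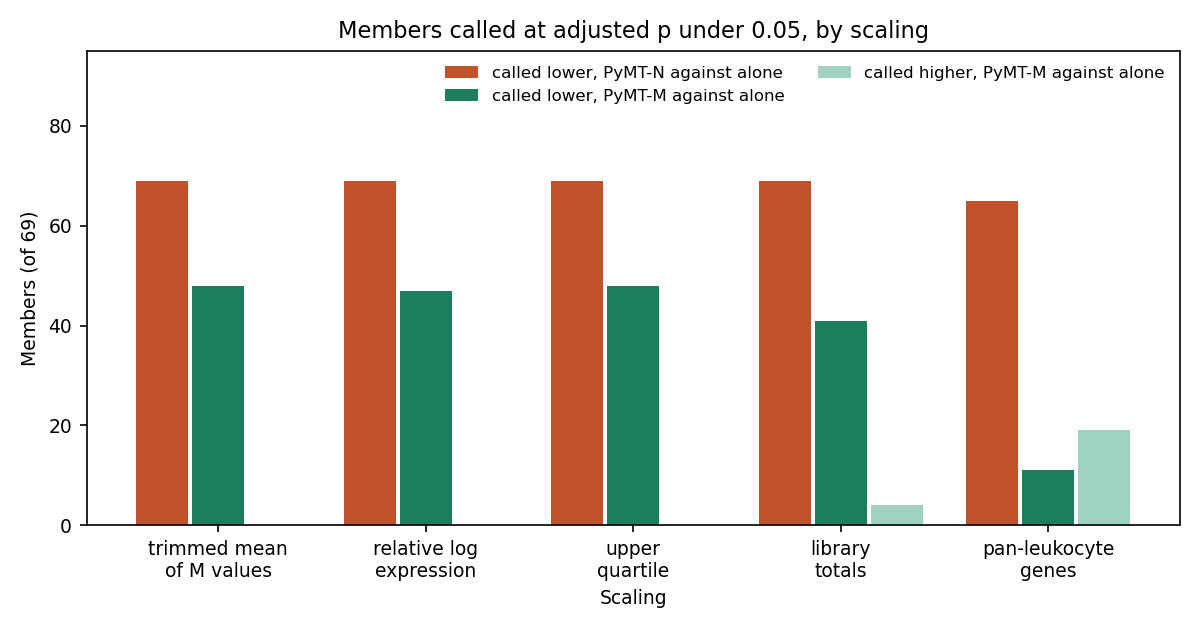
Bars count the members called at adjusted p under 0.05 (of 69) in edgeR's quasi-likelihood test under 5 ways of scaling the libraries. Calls lower with PyMT-N cells than alone stay between 65 and 69, while calls lower with PyMT-M cells than alone go from 48 under the trimmed mean of M values to 11 under pan-leukocyte scaling, where 19 are called higher.

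Sugar and energy metabolism held the most abundant member. Slc2a3 (ENSMUSG00000003153, chr6:122727809-122801640 in GRCm38) encodes GLUT3, a high-affinity glucose transporter of neutrophils. Its level was 1853, 1496 and 1421 normalised CPM in the 3 libraries alone, 1016, 819 and 638 with PyMT-M cells and 138, 87.6 and 54.7 with PyMT-N cells. The 3 groups did not overlap, and the means were 1589.8 ± 231, 824 ± 189 and 93.3 ± 41.8 (SD, n = 3). The log2 difference was -4.10 (SE 0.29) for PyMT-N cells and -0.95 (SE 0.26) for PyMT-M cells, both against alone. Adpgk, which phosphorylates glucose with ADP in place of ATP, had the same order, with 501, 493 and 358 alone, 221, 208 and 228 with PyMT-M cells and 33.6, 29.2 and 26 with PyMT-N cells. Khk, the first enzyme of fructose use, stood lower, at 27.6, 29.5 and 9.05 alone, 18.9, 12.2 and 10.1 with PyMT-M cells and 2.87, 4.13 and 2.58 with PyMT-N cells. Per kilobase of exon, the level alone was 219 normalised CPM for Slc2a3, 46.9 for Adpgk and 12.3 for Khk.

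The other 12 metabolic members were enzymes and carriers of lipids, thiols and amino acids. Mgst2, a microsomal glutathione transferase that can make leukotriene C4, stood at 180.0, 234 and 126 alone, 50.3, 33.8 and 51.1 with PyMT-M cells and 3.73, 5.78 and 6.03 with PyMT-N cells, and Carns1, which makes carnosine, at 61, 84.8 and 36.2 alone, 31.4, 19.5 and 19.7 with PyMT-M cells and 1.72, 1.65 and 0.646 with PyMT-N cells. Tst, a mitochondrial sulfurtransferase, held 39.8% of its mean alone with PyMT-M cells and 6.76% with PyMT-N cells. For Renbp, a renin-binding epimerase of amino sugars, those shares were 84.3% and 19%, and for Selenop, the plasma selenium carrier, 37.9% and 5.39%. Cd36, a scavenger receptor that takes up fatty acids, was 19.6, 29.1 and 28.7 alone, 14.4, 19.1 and 17.6 with PyMT-M cells and 2.58, 2.75 and 0.215 with PyMT-N cells. Of the metabolic members named so far, Slc2a3 (51.9%), Khk (62.3%), Renbp and Cd36 (66%) kept over 50% of their level alone with PyMT-M cells. With alone replicate 3 left out of the mean alone, Slc2a3 (49.2%) and Khk (48.1%) fell below 50%, and Tst (59.3%) and Selenop (51.2%) rose above it.

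Several of these enzymes rested on 1 library or on few counts. Mogat2, which makes diacylglycerol, had the largest ratio of PyMT-M to PyMT-N means (37.5) among members with any PyMT-N count, but its PyMT-M libraries were 6.02, 4.58 and 39.7, so 1 of them held most of the signal, and alone it was 19.2, 22.8 and 53.6. Cyp11a1, the mitochondrial enzyme that starts steroid synthesis, stood at 45.5, 95.6 and 77.7 alone, 0.215, 0.954 and 13.8 with PyMT-M cells and 2.01, 0 and 0 with PyMT-N cells, and left the set when PyMT-M replicate 3 was left out. Abhd15 went from 34.3, 48.2 and 7.54 alone to 12, 6.68 and 11.7 with PyMT-M cells, with 0.574, 2.2 and 0.215 with PyMT-N cells. Nat8l, which makes N-acetylaspartate, had 0 counts in the 3 PyMT-N libraries against 139 alone and 78 with PyMT-M cells, so its mean was at least 81.3-fold lower than alone with the PyMT-N group set to a floor of 3 counts over the group. Kmo, an enzyme of the kynurenine route, and Acot1, an acyl-CoA thioesterase with near-identical relatives, had 1 count each with PyMT-N cells, with 6 and 20 counts with PyMT-M cells and 170 and 123 alone. The ratio of alone to PyMT-N in pooled counts was 320.1 (95% exact interval 56.7 to 12715) for Kmo and 232 (40.8 to 9220.2) for Acot1, which covers counting error only.

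Enzymes that build or edit glycans and the GPI anchor, the lipid that holds many leukocyte surface proteins on the membrane, made up 5 members. Pigb, which adds a mannose to the anchor, was 176, 188 and 211 alone, 51.2, 56.5 and 65.5 with PyMT-M cells and 11.2, 10.2 and 8.18 with PyMT-N cells. Pgap1, which trims the anchor after attachment, was 235, 198 and 102 alone, 46.4, 47.5 and 33.8 with PyMT-M cells and 4.31, 9.09 and 3.66 with PyMT-N cells, and Pigl, which acts at the start of the route, was 14.3, 18.7 and 29.4 alone, 5.8, 6.49 and 5.06 with PyMT-M cells and 1.72, 0.551 and 1.29 with PyMT-N cells. In each of the 3 genes the groups did not overlap. St3gal5, which makes the ganglioside GM3, and Chst13, a chondroitin sulfotransferase, held 31.1% and 46.8% of their means alone with PyMT-M cells, and 7.76% and 11.7% with PyMT-N cells. Both lie just inside the limit on PyMT-M against PyMT-N, at 4.01-fold. Of 26 tested genes on a list put together after values were seen, 6 were called lower, 2 higher and 18 not called with PyMT-N cells against alone, with a median log2 difference of -0.09, and the 6 include these 3 members. For PyMT-N against PyMT-M cells the counts were 4 lower, 2 higher and 20 not called. Over all genes 23.6% were called lower and 29.4% higher in the first comparison, and 15.5% and 19.1% in the second.

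Adhesion and its control by Rap1 held 3 surface molecules and 1 exchange factor. Itgb2l (ENSMUSG00000000157, chr16:96422288-96443619) encodes an integrin beta chain close to Itgb2 and stood at 411, 371 and 201 normalised CPM alone, 171, 102 and 129 with PyMT-M cells and 22.7, 17.4 and 20.4 with PyMT-N cells. Its levels did not overlap between the groups, and the log2 difference was -4.03 (SE 0.30) with PyMT-N cells and -1.30 (SE 0.26) with PyMT-M cells. Rasgrp2 (ENSMUSG00000032946, chr19:6399340-6415216), the exchange factor that loads Rap1 with GTP downstream of calcium, was 234, 272 and 907 alone, 94.6, 71.8 and 49.8 with PyMT-M cells and 9.76, 7.99 and 15.1 with PyMT-N cells. Alone replicate 3 held 3.58 times the mean of the other two, so the mean alone rests largely on that library. Itga4, the integrin chain that binds VCAM-1, was 40.5, 32.1 and 106 alone, 8.38, 2.67 and 7.99 with PyMT-M cells and 0.574, 0.826 and 0.43 with PyMT-N cells, and Icam2, an integrin ligand, was 31.6, 23.9 and 49 alone, 7.95, 2.86 and 5.86 with PyMT-M cells and 1.44, 0.275 and 0.646 with PyMT-N cells. Icam2 lies 66.32 kb from Cd79b on chromosome 11, a B cell gene that is also a member. The 4 genes belong to a list of 17 tested genes of Rap1-driven integrin activation, put together after values were seen. On it 15 genes were called lower with PyMT-N cells than alone, 1 higher and 1 was not called, and with PyMT-M cells 16 were called lower and 1 higher, beside 40.4% and 48.1% of genes of mean at least 20 alone called lower in those comparisons under TMM. Against PyMT-M cells, 4 were called lower, 5 higher and 8 not called, and the 4 lower ones are the members, which the rule chose for that difference.

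Receptors, other surface proteins and 1 cytokine made up 16 members, and 9 of them were called lower with PyMT-M cells than alone, beside 48.1% of genes of mean at least 20 alone. Clec12a (ENSMUSG00000053063, chr6:129342691-129365303), an inhibitory C-type lectin that senses urate crystals and dying cells, stood at 458, 383 and 595 alone, 292, 139.7 and 292 with PyMT-M cells and 67.7, 45.5 and 61.1 with PyMT-N cells, with no overlap between groups. Clec4a1, another C-type lectin whose family members are close in sequence, was 127, 137 and 308 alone, 67.1, 58.2 and 105 with PyMT-M cells and 14.9, 11.8 and 18.7 with PyMT-N cells. Most other Fc receptors and lectins on the list did not show the order of these genes. Of 26 such genes, Clec12a among them, 22 were called higher and 2 lower with PyMT-N cells than with PyMT-M cells, beside 19.1% and 15.5% of all genes. S1pr4, a receptor for sphingosine-1-phosphate on leukocytes, was 127, 135 and 106 alone, 37.4, 49.4 and 24 with PyMT-M cells and 3.44, 7.16 and 6.03 with PyMT-N cells. By contrast, 18 of 30 chemoattractant and purinergic receptors were called higher and 4 lower with PyMT-N than with PyMT-M cells, beside the same shares of all genes.

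The receptors differed widely in how much remained with PyMT-M cells. Anpep, the aminopeptidase CD13 of myeloid cells, was 33.4, 34.4 and 69.4 alone, 63.4, 34.7 and 84.4 with PyMT-M cells and 14.1, 3.03 and 4.52 with PyMT-N cells, and Plxnd1, a receptor for semaphorins, was 51.2, 53.4 and 129 alone, 109, 111 and 106 with PyMT-M cells and 27, 14 and 5.6 with PyMT-N cells. Neither was called in the comparison of PyMT-M cells with alone, where the log2 differences were 0.47 (SE 0.41) and 0.54 (SE 0.38). Tnfsf13b, the B cell survival factor BAFF that neutrophils release, was 30.3, 26.2 and 21.9 alone, 17.2, 16.8 and 18.1 with PyMT-M cells and 1.72, 3.86 and 0.215 with PyMT-N cells. Pattern receptors Tlr5, for flagellin, and Cd180, a Toll-like receptor homologue, held 55.2% and 65.8% of their level with PyMT-M cells and 8.05% and 8.38% with PyMT-N cells. For Gpr65, which senses acid, the shares were 47.2% and 4.97%, and for Ms4a6b, a membrane protein with close relatives, 92% and 20.7%. The SLAM family receptor Slamf7 was 23.2, 17.9 and 37.7 alone, 17.6, 15.5 and 29 with PyMT-M cells and 3.16, 2.48 and 0.215 with PyMT-N cells, and its neighbour on chromosome 1, Ly9, 43.78 kb away, was 69.5, 82.6 and 338 alone, 18.5, 15.5 and 20.8 with PyMT-M cells and 7.18, 1.93 and 0.861 with PyMT-N cells. Ly9 is also on the B cell marker list, and most of its mean alone came from replicate 3. Of 7 tested SLAM family genes, a list put together after values were seen, 6 were called lower with PyMT-N cells than alone and 5 with PyMT-M cells. The shares called lower were 23.6% and 27.9% of all genes, and 40.4% and 48.1% of genes of mean at least 20 alone. For PyMT-N against PyMT-M cells 4 were called lower, 1 higher and 2 not called, beside 15.5% lower and 19.1% higher over all genes.

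A group of members marks other blood cells and had almost no counts in either co-culture. Cd79b, the signalling chain of the B cell receptor, was 25.8, 28.8 and 91.3 alone, 2.36, 0.191 and 0.799 with PyMT-M cells and 0.574, 0 and 0 with PyMT-N cells. It had 2 counts with PyMT-N cells and 15 with PyMT-M cells, a ratio of 6.46 in pooled counts with an exact interval of 1.5 to 58.2. Siglech, the lectin of plasmacytoid dendritic cells, was 30.7, 19.4 and 43 alone and had 2 counts with PyMT-M cells and 0 with PyMT-N cells, so no ratio between the co-cultures is given. Bcl11a, a repressor needed for B cells and plasmacytoid dendritic cells, had 163 counts alone, 13 with PyMT-M cells and 3 with PyMT-N cells. Cd72, a B cell inhibitory receptor, differs from these: it was 22.3, 26.9 and 41.5 alone, 13.3, 8.97 and 10.9 with PyMT-M cells and 0.574, 0 and 0.646 with PyMT-N cells, and its groups did not overlap. Ly6f, of a family with near-identical genes, was 15.2, 8.59 and 39.2 alone, 0.43, 2.86 and 0 with PyMT-M cells and 0 in each PyMT-N library. The 8 members not called lower with PyMT-N than with PyMT-M cells were Cyp11a1, Cd79b, Nxpe4, Siglech, Kmo, Bcl11a, Ly6f and Acot1, whose median share with PyMT-M cells was 4.37% of alone.

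Promoter sequence is shown for 4 members whose windows hold a motif of a granulocyte transcription factor, 2 from the receptors and 1 each from adhesion and granules. The windows are the 250 bases before the RefSeq transcription start in GRCm38.p6, printed 5′ to 3′ on the gene's strand. Capitals mark PU.1 letters (GAGGAAGT) in Itgb2l and Cd72, C/EBP letters (TTGCNNAA) in Clec12a and Fcnb, and RUNX letters (TGTGGT) in Clec12a, each searched on both strands, so a motif on the opposite strand reads reversed and complemented. The Itgb2l window (chr16:96443615-96443864, minus strand) and the Cd72 window (chr4:43454627-43454876, minus strand) have their motif 57 and 49 bases before the start. The Clec12a window (chr6:129349994-129350243, plus strand) has C/EBP letters 140 and RUNX letters 155 bases before the start, and the Fcnb window (chr2:28084879-28085128, minus strand) has C/EBP letters 235 and 123 bases before it.
Itgb2l: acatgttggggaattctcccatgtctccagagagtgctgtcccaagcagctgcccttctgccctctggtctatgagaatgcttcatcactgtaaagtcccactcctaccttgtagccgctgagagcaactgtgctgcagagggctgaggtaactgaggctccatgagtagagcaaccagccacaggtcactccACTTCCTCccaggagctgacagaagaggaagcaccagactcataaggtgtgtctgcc
Cd72: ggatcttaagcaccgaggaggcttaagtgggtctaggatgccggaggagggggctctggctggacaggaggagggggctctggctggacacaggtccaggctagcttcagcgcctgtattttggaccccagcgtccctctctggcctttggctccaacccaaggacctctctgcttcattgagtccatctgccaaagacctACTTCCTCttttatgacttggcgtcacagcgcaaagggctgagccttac
Clec12a: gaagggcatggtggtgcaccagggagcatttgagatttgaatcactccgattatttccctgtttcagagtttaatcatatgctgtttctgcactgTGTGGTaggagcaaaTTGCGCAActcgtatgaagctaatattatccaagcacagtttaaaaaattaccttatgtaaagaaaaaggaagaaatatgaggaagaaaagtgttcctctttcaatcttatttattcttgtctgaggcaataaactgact
Fcnb: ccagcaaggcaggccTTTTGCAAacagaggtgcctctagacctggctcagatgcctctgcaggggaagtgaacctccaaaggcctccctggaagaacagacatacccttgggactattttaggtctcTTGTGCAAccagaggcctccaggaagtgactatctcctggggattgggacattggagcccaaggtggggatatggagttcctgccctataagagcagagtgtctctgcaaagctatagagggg

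Of the 69 members 54 matched the RefSeq promoter table, with 76 windows. PU.1 letters stood in 7 of those windows (9.21%), beside 2.44% of all 32851 windows, and C/EBP letters in 13.2%, beside 9.56%. RUNX letters stood in 17.1% beside 14%, the interferon-stimulated response element in 5.26% beside 2.98%, E-box letters (CANNTG) in 63.2% beside 66.2%, octamer letters (ATTTGCAT) in 1.32% beside 1.6%, and the EBF1 palindrome in 0 beside 0.779%. Overlapping windows of Selenop hold the same PU.1 and response element letters, so window shares count these more than once. By gene, PU.1 letters stood in 6 of the 54 members (11.1%, beside 2.79% of all genes) and the response element in 3 (5.56%, beside 3.46%). C/EBP letters stood in 16.7% of members beside 10.8%, and RUNX letters in 24.1% beside 15.9%. The windows of members and of all genes held 55.8% and 53.2% G and C. These are matches of letters, without a test, and say nothing of binding.

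The 12 signalling members were kinases, GTPase regulators, channel proteins, a cell death regulator and membrane or vesicle proteins. Aatk, a kinase tied to apoptosis, stood at 307, 294 and 211 alone, 93.7, 56.5 and 55.4 with PyMT-M cells and 4.59, 9.92 and 7.96 with PyMT-N cells. Bmx, a Tec family kinase found in endothelium and myeloid cells, was 119, 136 and 37 alone, 47.3, 38 and 27.7 with PyMT-M cells and 1.72, 2.75 and 2.15 with PyMT-N cells, with a ratio of 17 between the co-cultures. The groups did not overlap in Aatk or, for PyMT-N cells against either other group, in Bmx. Arhgap15, which switches off Rac, was 122, 124 and 65.6 alone, 40.4, 33 and 53.5 with PyMT-M cells and 6.89, 6.06 and 3.66 with PyMT-N cells. Tbc1d10c, a regulator of Ras and calcineurin, held 28.9% with PyMT-M cells and 3.03% with PyMT-N cells, and lies 19.09 kb from Carns1 on chromosome 19. Rragd, a Rag GTPase of nutrient sensing by mTORC1, was 64.2, 44.8 and 47.5 alone, 51.2, 38.4 and 37.5 with PyMT-M cells and 4.02, 1.65 and 2.58 with PyMT-N cells. Its alone and PyMT-M libraries overlapped, whereas all PyMT-N libraries were lower.

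Kcnab2, a potassium channel beta subunit, stood above its level alone with PyMT-M cells, at 40.1, 40.4 and 30.9 alone, 51, 65.9 and 34.1 with PyMT-M cells and 8.04, 6.34 and 8.82 with PyMT-N cells, and the comparison of PyMT-M cells with alone was not called. Calhm2, a calcium homeostasis modulator, Lrmp, an endoplasmic reticulum membrane protein, and Eef2k, which slows elongation, were each highest in replicate 3 of the libraries alone, at 76.2, 159 and 49. With PyMT-M cells they held 78.8%, 33.7% and 66.2% of alone and with PyMT-N cells 10.5%, 5.35% and 14.1%. Without alone replicate 3 the shares with PyMT-M cells were 227%, 83.1% and 102%. Bmf, a BH3-only protein that promotes cell death, was 25, 24.3 and 30.9 alone, 3.87, 2.86 and 2.13 with PyMT-M cells and 1.15, 0.275 and 0.646 with PyMT-N cells. Sytl3, a vesicle-docking protein, had 122 counts alone, 49 with PyMT-M cells and 0 with PyMT-N cells. With the PyMT-N group set to a floor of 3 counts, its ratio of alone to PyMT-N was 80.2 from means of normalised CPM and 76.6 in pooled counts.

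Nuclear members had the highest median share with PyMT-M cells of the classes, 68.1% over 9 genes that ran from 3.5% (Bcl11a) to 143% (Zfp704). The receptor class came next at 48.8%. This order was not checked without alone replicate 3, and the classes were set with earlier results known. Satb1, which organises chromatin, was 225, 251 and 284 alone, 57.6, 55.9 and 62.8 with PyMT-M cells and 17.2, 5.51 and 7.53 with PyMT-N cells. Cebpd, a C/EBP factor of myeloid cells and acute responses, was 177, 139.7 and 59.6 alone, 138, 65.5 and 193 with PyMT-M cells and 22.7, 38.6 and 23.7 with PyMT-N cells, so its alone and PyMT-M libraries overlapped. Its PyMT-N mean was 4.43-fold below alone, just inside the limit. Zfp704, a zinc finger protein, was the only member whose PyMT-M libraries were all above those alone, at 40.6, 38.4 and 43.1 against 28.1, 25.8 and 31.7, with 3.73, 1.38 and 1.94 with PyMT-N cells. Myb, the progenitor transcription factor, was 50.8, 31 and 89 alone, 14.8, 9.16 and 17.6 with PyMT-M cells and 0.574, 1.1 and 3.44 with PyMT-N cells. Fbxo31, a ubiquitin ligase subunit, held 34% and 6.64% of alone. For Fanca, of DNA crosslink repair, the shares were 69.3% and 14%, for Fam53b 68.1% and 12%, and for Thra, a thyroid hormone receptor, 88.8% and 21.9%. Thra was 13.8, 19.8 and 44.5 alone, and without replicate 3 its share with PyMT-M cells was 138%. Of 17 granulocyte transcription factors, Cebpd among them, 9 were called lower with PyMT-N cells than alone, 4 higher and 4 not called, and with PyMT-N against PyMT-M cells 3 were called lower, 8 higher and 6 not called. Over all genes 23.6% were called lower and 29.4% higher in the first comparison, and 15.5% and 19.1% in the second.

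Granule proteins made up 2 members, and the rule leaves out several others by name. Fcnb, a ficolin that opens the lectin pathway of complement, was 47.7, 16.4 and 76.9 alone, 10.1, 7.06 and 9.58 with PyMT-M cells and 1.15, 0.275 and 0 with PyMT-N cells, and Lyz1, a lysozyme nearly identical to Lyz2, was 74.9, 37.7 and 43 alone, 23.2, 13.2 and 17 with PyMT-M cells and 3.73, 1.38 and 0.43 with PyMT-N cells. Of 25 tested specific granule and immature neutrophil genes, Itgb2l and Lyz1 among them, 17 were called lower, 2 higher and 6 not called with PyMT-N cells against alone. Of 10 primary granule genes, Fcnb among them, 8 were called lower and 2 higher in that comparison, and all 10 were called lower with PyMT-M cells than alone. Between the co-cultures, 1 of the 10 was called lower with PyMT-N cells, 2 higher and 7 not called. Over all genes 23.6% were called lower and 29.4% higher with PyMT-N cells than alone, and 27.9% lower with PyMT-M cells than alone. With PyMT-N against PyMT-M cells those shares were 15.5% lower and 19.1% higher. Reads of Lyz1 and Lyz2 may be split between the genes.

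The remaining 7 members have no role that groups them. Ccdc126 was 264, 198 and 134 alone, 84.1, 55.4 and 62.6 with PyMT-M cells and 25.5, 12.7 and 11.2 with PyMT-N cells, and Nhsl2 and the co-chaperone Dnajb14 held 32.7% and 25.2% of alone with PyMT-M cells and 7.52% and 5.28% with PyMT-N cells. Dnah6, a dynein heavy chain, and Nxpe4 had 0 counts with PyMT-N cells, and 121 and 74 counts with PyMT-M cells. With the PyMT-N group set to a floor of 3 counts, the ratios of alone to PyMT-N were 99.1 and 189 from means of normalised CPM. In pooled counts the same floor gave 113 and 140. Nxpe4 was 12.5, 14.6 and 118 alone, so its level alone and both of its ratios rest on replicate 3. Tusc1 had 3 counts with PyMT-N cells against 131 alone, a ratio of 82.2 in pooled counts (27.5 to 404). The gene model A430078G23Rik was 43.7, 38.5 and 3.77 alone, 5.59, 3.82 and 8.25 with PyMT-M cells and 0.861, 0.551 and 0.646 with PyMT-N cells.

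**Figure D4:**
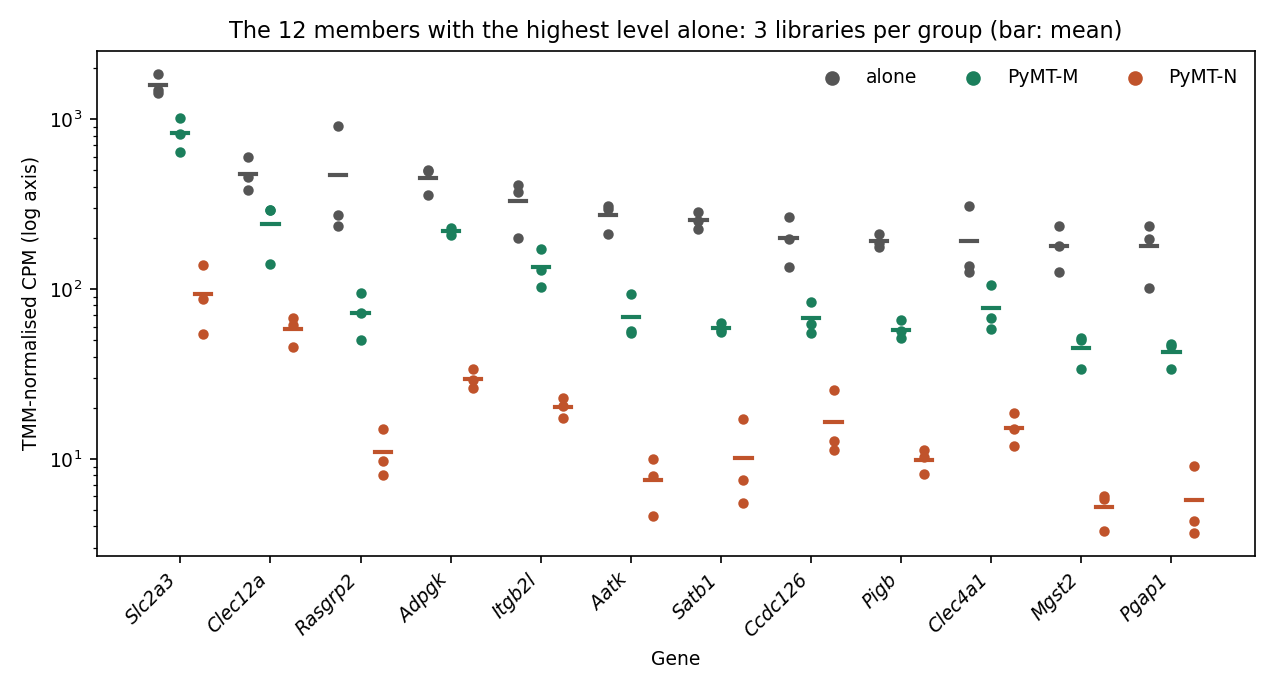
Points give the normalised CPM of each library, on a log axis, for the 12 members with the highest mean alone, and bars give the group means. In all 12 genes every PyMT-N library is below every PyMT-M library, and alone replicate 3 of Rasgrp2 lies far above the other two.

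Alone replicate 3, the library of lowest depth with 12.7% of its counts on the mitochondrial large ribosomal RNA (5.92 and 7.39% in the other two), stood apart for many members. That share was 7.24, 6.12 and 11.1% in the PyMT-M libraries and 4, 2.65 and 2.7% in the PyMT-N libraries, below all others, and its part in the members' levels was not tested. Alone replicate 3 was the highest alone library in 35 of the members, beside 39.4% of coding genes of mean at least 20, and the lowest in 28, beside 48.6%. In 29 members (42%, beside 21.6%) it was over 1.5 times the mean of the other two, and in 20 (29%, beside 27.8%) it was below that mean by the same factor. Nxpe4, Calhm2, Lrmp, Ly9, Rasgrp2, Cd79b and Ly6f were among the high ones and A430078G23Rik, Dnah6, Abhd15, Tbc1d10c and Bmx among the low ones. The B cell sum was also highest in that library. Left out together with replicate 3 of the other groups, the rule chose 65 genes, of which 49 are members. Acot1, Calhm2, Eef2k, Ly6f, Ms4a6b, Nxpe4, Pigl, Plxnd1, Sytl3, Thra and Tusc1 left the set when only that library was left out. Leaving it out of the mean alone moved the PyMT-M share by over 1.5 times in 11 members and across 100% in 7. Besides those given above, the share went from 15.3 to 28.5% for Rasgrp2, 11.2 to 24% for Ly9, 10.6 to 17.5% for Itga4, 2.3 to 4.09% for Cd79b, 11.1 to 39.7% for Nxpe4, 52.6 to 79.9% for Mogat2 and 5.23 to 9.25% for Ly6f. It crossed 100% for Cebpd (105 to 83.4%), Renbp (84.3 to 104%), Ms4a6b (92 to 129.97%) and Slamf7 (78.8 to 101%). The part of this library's depth or cell content in these levels was not tested.

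**Figure D5:**
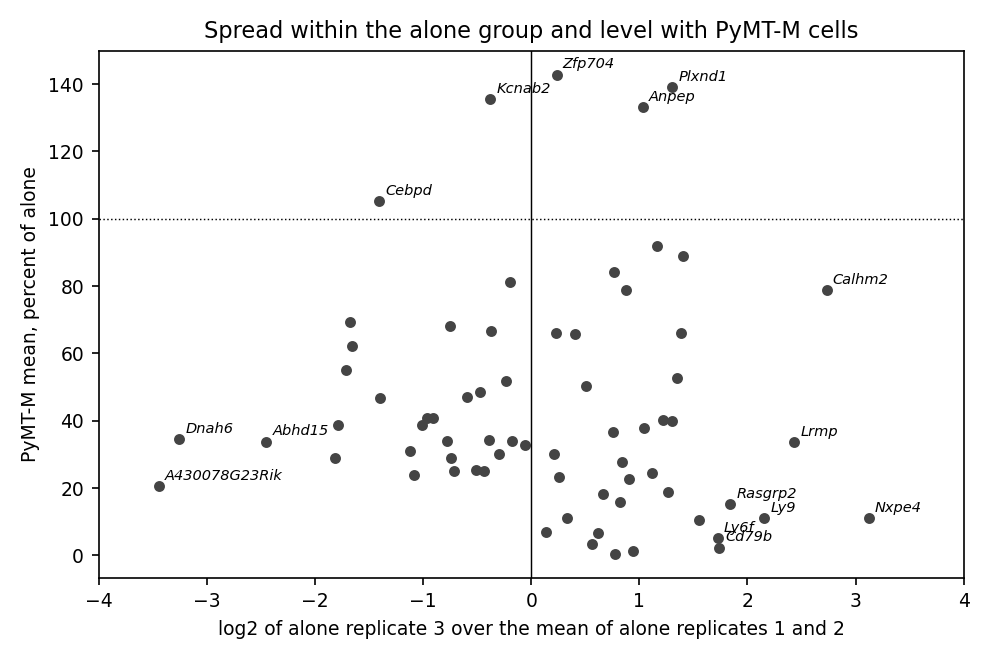
Each point is 1 of the 69 members, with the log2 ratio of alone replicate 3 to the mean of alone replicates 1 and 2 on the x axis and the PyMT-M mean as a percent of alone on the y axis. Ratios spread to both sides of 0, and Nxpe4, Calhm2, Lrmp, Ly9 and Rasgrp2 are the highest while A430078G23Rik, Dnah6 and Abhd15 are the lowest.

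In 15 members every library lay on its own side of the limits: Slc2a3, Adpgk, Itgb2l, Aatk, Pigb, Mgst2, Tst, Tbc1d10c, Arhgap15, Bmx, Carns1, Rragd, Cd72, Zfp704 and Tnfsf13b. Of the 69, 40 were chosen again whichever library was left out, and 32 under each of 4 other scalings. The limits cut through a continuum: Acot1 and Chst13 had 20.3 and 20.4 normalised CPM alone, Gm12689 and Rnf144b just outside had 19.4 and 18.6, and Syne1 and Ldlrad3 missed the PyMT-M limit at 3.94 and 3.93-fold. Zeb1 and Trim35 missed the PyMT-N limit at 3.52 and 3.05-fold. Exons of 13 members overlap another tested gene on the opposite strand, 7 of them over at least 10% of their exon bases, with Cd72 (41.6%, Tesk1), Carns1 (40.3%, Gm17552), Abhd15 (29.1%, Gm10392) and Pigb (20.8%, Ccpg1) highest, and no source used here states whether strand was used in counting.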

How the data were processed

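Counts per gene for 9 libraries were deposited by the authors as a table of whole-number counts; per the submitters' processing notes reads were aligned with STAR to GRCm38 (mm10), while the tool, annotation and strand of counting are stated by no source used here. Libraries were made from picogram amounts of RNA with a single-cell kit, per the labels' protocols. Of the gene IDs, 54495 matched GENCODE M21 and 37 did not; every column was mapped to a sample (0 unmapped). Group means used TMM-normalised CPM over the 12012 genes kept by filterByExpr (minimum count 10, minimum total 15). With the same size factors, the rule applied to unfiltered genes chose the same 69. With TMM factors also taken without the filter, it chose 64 genes, all of them members. Tests were edgeR 4.0.16 quasi-likelihood fits (robust, group means, no replicate block) in R 4.3.3, with Benjamini-Hochberg adjustment over all tested genes and calls at adjusted p under 0.05. In the self-test on simulated counts, for PyMT-N against alone with 11584 genes and 50 changed genes per fold, 30% of 2-fold, 92% of 4-fold and 100% of 8-fold changes were called, and none of 1.5-fold. Alternatives were DESeq2 1.42.0, other scalings, filters and limits, the replicate block and each library left out; the summary of members above 50% with PyMT-M cells, every library past the limits, the fit limited to genes of mean at least 20 the PyMT-M share without alone replicate 3 and the joint removal of 3 libraries were added after seeing the data. Members, roles and gene lists were chosen with earlier results of these data known. The genes to be named were the 12 highest alone, the 10 with the largest ratio of PyMT-M to PyMT-N means, the 5 highest and 5 lowest ratios of PyMT-M to alone, those on a gene list and those near a limit; the other members were named by role after their values were seen. A floor of 3 counts over a group was used where a gene had 0 counts, and ratios with 1 to 3 counts have exact 95% intervals that cover counting error only.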

Additional observations from a re-analysis of the deposited data

How the results depend on the processing

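The set depends on its limits. A minimum of 50 normalised CPM alone left 33 genes, 3-fold limits gave 123, 8-fold limits 28, and requiring every library past the limits left 15; leaving out single libraries gave 62 to 87. Members called lower with PyMT-M cells than alone went to 11 under pan-leukocyte scaling, where 1.78% of all genes were called lower and 67.9% higher, and their median log2 difference moved from -1.55 to -1.05 with library totals and reversed to 0.068 with pan-leukocyte scaling. Medians for PyMT-N cells against alone moved to -3.996 with library totals and -3.01 with pan-leukocyte scaling, and against PyMT-M cells to -3.19 with the latter; members above 50% with PyMT-M cells went from 22 to 56. Among the 48 members called lower with PyMT-M cells than alone under TMM, pan-leukocyte scaling reversed the sign of that difference for Slc2a3 (0.68), Clec12a (0.66), Adpgk (0.60), Itgb2l (0.33), Ccdc126 (0.052), Clec4a1 (0.38), Nhsl2 (0.014), Tst (0.36), Arhgap15 (0.31), Bmx (0.21), Fbxo31 (0.068), Carns1 (0.21), Selenop (0.28), Lyz1 (0.068), Cd72 (0.23), Gpr65 (0.46) and Chst13 (0.44). Sign changes among the 21 members not called under TMM are not listed, so this list is not complete. The cause was not tested. No pairing by replicate number was detected: deviations of same-numbered libraries correlated from -0.0781 to 0.0285, and those of differently numbered ones from -0.0618 to 0.0682. The same numbers are used in every group, and such correlations cannot show that the libraries were unpaired. With the replicate block 69, 62 and 50 members were called lower for PyMT-N against alone, PyMT-N against PyMT-M and PyMT-M against alone, with medians of -4.28, -2.86 and -1.53. DESeq2 called 68, 63 and 44. The contrasts with PyMT-N cells chose the members, and shares of all genes called in the block and DESeq2 fits are not given. Nothing is therefore read from these counts. Depth limits members of 3 or fewer counts with PyMT-N cells, whose fold is a bound or a wide interval.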

Other observations

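The same limits without the restriction to protein-coding genes added 10 genes, described here by their normalised CPM. Among them were 2 immunoglobulin heavy chain genes of B cells: Ighm stood at 489, 449.9 and 952 alone, 119.5 with PyMT-M replicate 1, 86.5 and 75.3 in the other two PyMT-M libraries, and 12.3, 9.64 and 13.8 with PyMT-N cells, and Ighd at 22.7, 7.47 and 43.0 alone, with 23 counts in all with PyMT-M cells and 0 with PyMT-N cells. The B cell marker Cd79a was at 0.0717 with PyMT-M cells, and the difference from Ighm was not tested. The long non-coding RNA 1700047M11Rik averaged 206 ± 99.7 alone, 67.8 ± 14.9 with PyMT-M cells and 13 ± 3.31 with PyMT-N cells (SD, n = 3), and was lowest alone in replicate 3. The pseudogene Gm7269 had 210 counts alone, 104 with PyMT-M cells and 0 with PyMT-N cells.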
